A study of Mus musculus with 38 samples.

Results

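The spiral ganglion (SG) fraction of mouse cochlear explants was compared 72 h after kainate with the same fraction of untreated explants. The comparison used 6 of the 38 arrays of the series, 3 of kainate-treated and 3 of control tissue, which were chosen by the tissue, time and treatment in their names, and all 25697 probes of the array were read. Explants came from C57BL/6 mice 3 to 5 days old. Treated explants received 0.4 mM kainate for 2 h, control explants received no treatment, and both were then kept in culture until 72 h. The explant held the sensory epithelium together with the ganglion during culture, and only at harvest was the SG cut free from the rest, which is called the organ of Corti (OC) fraction. The methods of the study give 4 explants for each time and treatment, of which only RNA with an integrity number of at least 7 was carried further, so the arrays labelled kainate 1, 3 and 4 and control 2, 3 and 4 were available here. The labels do not say which animal each array came from, and the p-values measure the spread between arrays. The 72 h SG effect was set against that in SG at 24 h (3 kainate, 2 control arrays) and at 5 h (4 and 4). It was also set against that in OC at 72 h (3 and 3). All 38 arrays entered the same linear model, so the standard errors and p-values at 72 h rest on the spread within every group.

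Spiral ganglion neurons carry the signals of the hair cells to the brain stem, and their peripheral endings receive glutamate at the ribbon synapses of the inner hair cells. Kainate is an agonist of the ionotropic glutamate receptors on those endings, and overstimulation makes the endings swell and withdraw from the hair cells. In explants of newborn cochlea the fibres can grow back within days. The study sampled 5 h, 24 h and 72 h for damage, regrowth and its end, so the question of the 72 h comparison was whether treated SG still differed from untreated SG.

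Detection was similar on the 6 arrays. Between 10043 and 11510 probes per array had a detection p under 0.01, and the median raw signal lay between 192 and 256. Neuronal markers were present in the fraction but not at a high level. Gap43, a growth cone protein, had log2 signals from 8.81 to 9.75 with a median of 9.20 over the 6 SG arrays, against 7.87 to 8.62 on the 6 OC arrays, with no overlap. The microtubule protein gene Mapt ranged from 10.33 to 10.84 in SG and from 8.60 to 10.15 in OC. Nefm, a neurofilament subunit, was lower in SG (8.21 to 10.15) than in OC (10.36 to 10.57). The probes used for Nefl, Prph, Snap25 and Slc17a7 were not above background on any of the 6 SG arrays, and that for Tubb3 was on 3. Those of Nefl and Snap25 were about as dim in SG at 5 h (medians 7.12 and 7.29, then 7.14 and 7.14), so they say little about neurons. Those of Prph and Slc17a7 had medians of 8.30 and 7.89 at 5 h and of 7.48 and 7.45 at 72 h. The mean of 35 neuron markers was 9.03 to 9.37 on the SG arrays at 72 h and was higher, at 9.47 to 9.57, on the OC arrays, although 18 of the 35 were higher in SG. The neuron list shares Prox1 with the supporting cell list and Thy1 with the fibroblast list, so this mean need not be of neurons alone. On the 8 SG arrays at 5 h the mean was 9.85 to 10.38, with 29 of the 35 lower at 72 h. In bulk tissue, fewer neurons and less RNA per neuron cannot be told apart. Hair cell markers were low, with a list mean of 7.98 to 8.36 against 9.17 to 9.45 in OC. Otof, needed for transmitter release from hair cells, was at 7.90 to 9.14 in SG and 11.65 to 12.04 in OC.

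Few probes differed between kainate and control SG at 72 h. At the unadjusted p under 0.005 that the study used as its threshold, 46 of 25697 probes passed (0.179%), of which 20 were higher after kainate (0.0778%) and 26 were lower (0.101%). With independent arrays and no difference between groups, that threshold passes 0.5% of probes. The deviations of kainate 4 and control 4 correlated at 0.626 and those of kainate 3 and control 3 at 0.128. The arrays may therefore not be independent. With the array number as a random block, 79 probes passed, all 46 among them. Beyond such block fits, the part of this dependence in the count was not tested. No probe reached a Benjamini-Hochberg adjusted p under 0.05 in limma (0 of 25697), and 698 probes (2.72%) had an unadjusted p under 0.05. This depended on the fit. With the array number as a fixed block, which compares only kainate 3 and 4 with control 3 and 4, 40 of 25697 reached that adjusted p. In that fit 267 passed an unadjusted p under 0.005, 7 of them among the 46. The same threshold was passed by 282 SG probes (1.1%) at 24 h, by 100 (0.389%) at 5 h and by 66 OC probes (0.257%) at 72 h. Only 16 of the 46 (34.8%) were detected, with a detection p under 0.01 on 2 or more arrays of either group, as were 42.8% of all probes, and these are called above background. They were 0.146% of the 10990 probes above background. Of the others, 27 were not detected on any of the 6 arrays, including all 6 olfactory and vomeronasal receptor probes among the 46. In 42 of the 46 the groups did not overlap, where 6.32% of all probes had groups that did not overlap. Leaving out 1 array changed the count: 94 probes passed without control 2, 82 without kainate 1, 76 without kainate 4, and 58 to 67 without each of the others. Of the 46, only H3c6 and Olfr1188, an olfactory receptor gene not above background, stayed past the threshold in all 6 of these fits.

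Among the 6 higher probes above background, Krtdap and H3c6 had the largest differences. Krtdap, a keratinocyte differentiation gene, had log2 signals of 9.62, 9.07 and 8.08 on control arrays 2, 3 and 4 and of 10.59, 10.52 and 9.76 on kainate arrays 1, 3 and 4. All kainate arrays lay above all control arrays, and control 4 was the lowest of all 38 arrays. The log2 fold change was 1.37 (SE 0.36, 95% interval 0.63 to 2.11, limma unadjusted p = 0.000669). The gene was not past the threshold without control 4, where the log2 fold change was 0.95, or without kainate 1. At 24 h its difference had the opposite sign, with a log2 fold change of -0.87, and the effect at 72 h exceeded that at 24 h by 2.24 (limma unadjusted p = 0.000256, adjusted p = 0.506).

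H3c6 encodes a histone H3 that is made mainly during DNA replication and belongs to a family of near-identical genes, which a short probe may not tell apart. It was at 7.84, 8.45 and 8.08 in control and at 9.04, 8.57 and 9.20 after kainate, without overlap, although only 1 control array was above background. The log2 fold change was 0.81 (SE 0.17, limma unadjusted p = 5.06e-05), the smallest p of the comparison, and it lay between 0.67 and 0.99 when single arrays were left out. Within the array batch that holds kainate 4 and control 4 the difference was 1.12, and within the batch that holds kainate 3 and control 3 it was 0.12.

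The other 4 higher probes had smaller differences. Mtif3, a mitochondrial translation initiation factor, was at 8.89, 9.36 and 9.12 in control and at 9.50, 9.52 and 9.63 after kainate, a log2 fold change of 0.43. Tsr2, a factor in ribosome assembly, was at 8.28, 7.98 and 8.03 and then at 8.57, 8.26 and 8.57, where kainate 3 fell below control 2, and its other probes gave -0.18 and -0.20. Plekhg6 was at 8.45, 8.38 and 8.26 and then at 8.53, 8.67 and 8.77, a log2 fold change of 0.30. Dtna, which encodes the dystrophin-associated protein dystrobrevin alpha, differed by 0.32 with one probe, while its other probes gave -0.28, 0.11 and 0.02.

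Of the 10 lower probes above background, those of Sncg and Fgg differed most. Sncg encodes gamma-synuclein, a protein of peripheral sensory neurons. Its log2 signals were 9.94, 9.20 and 9.89 in control and 9.13, 8.21 and 9.38 after kainate, so kainate 4 was above control 3 and the groups overlapped. The log2 fold change was -0.77 (SE 0.25, limma unadjusted p = 0.00435). It was -0.42 without kainate 3, the array lowest for many neuronal genes, and was then not past the threshold. Nor was it without control 2 or control 4. A second Sncg probe gave -0.20.

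Fgg, the gamma chain of fibrinogen, was at 10.23, 10.56 and 10.70 in control and at 8.89, 10.20 and 10.12 after kainate. The groups did not overlap, and kainate 1 stood more than 1 log2 unit below the rest. The log2 fold change was -0.76 (SE 0.20, limma unadjusted p = 0.000797), and it was -0.33 without kainate 1, not past the threshold, nor was it without control 4.

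The remaining lower probes had log2 fold changes between -0.47 and -0.26. Ncapd3, a subunit of the condensin complex that shapes mitotic chromosomes, was among the brighter ones, at 10.32, 10.04 and 9.99 in control and 9.74, 9.94 and 9.75 after kainate. Aste1 was at 8.97 to 9.02 in control and at 8.79, 8.90 and 8.36 after kainate, and Ttc37, part of a complex in RNA decay, at 8.55, 8.89 and 8.61 and then at 8.42, 8.14 and 8.53. The groups of these genes did not overlap. The probe for 1110038F14Rik, the brightest of the 16, differed by -0.31, while a second probe of that gene gave 0.10.

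The other 4 lower probes were above background on more control arrays than kainate arrays. Prdm9, a histone methyltransferase of meiosis, was at 8.52, 8.34 and 8.42 in control and at 8.04, 8.19 and 7.95, not above background, after kainate. Set against the dimmest detected signal it was at least 1.15-fold lower. Cyp1a2, a cytochrome P450 induced by aryl hydrocarbons, was at 8.40, 8.05 and 8.46 and then at 7.60, 8.01 and 7.90, at least 1.05-fold lower. Piwil1, a germ line gene of the piRNA pathway, was at 8.09, 8.18 and 8.30 and then at 7.70, 7.92 and 7.93, and no fold could be given because the bound was under 1. Alg11, a mannosyltransferase of N-glycan assembly, was at 8.36, 8.36 and 8.33 and then at 8.13, 8.01 and 8.12, above background on all 3 control arrays and on 1 kainate array, with a measured log2 fold change of -0.26.

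**Figure D1:**
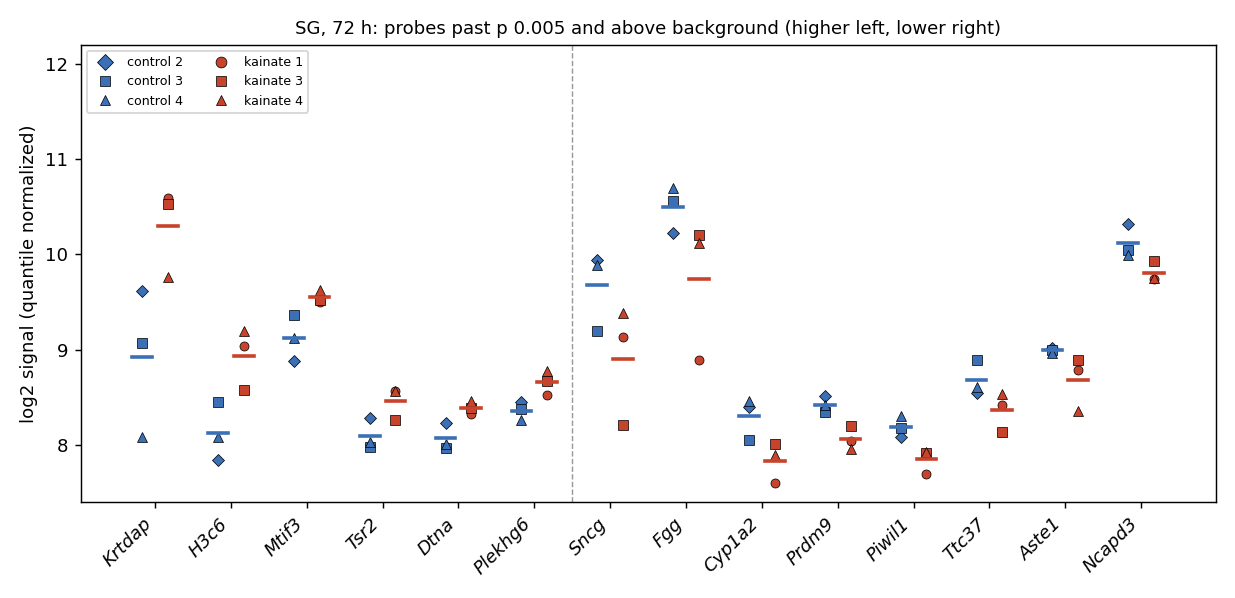
Log2 signal (vertical axis, quantile normalized) on each of the 6 SG arrays at 72 h for probes past an unadjusted p under 0.005 and above background, with the 6 higher genes left of the dashed line and the 8 largest decreases right of it. Symbols are single arrays, blue for control and red for kainate, and bars are group means. Kainate 1 stands apart for Fgg, and the groups of Sncg and Tsr2 overlap.

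The values nearest the threshold showed no gap. Just inside it were Vwa7 (limma unadjusted p = 0.00496) and Ttc37 (limma unadjusted p = 0.00498), and just outside it Usp8 (limma unadjusted p = 0.00503) and Glis2 (limma unadjusted p = 0.00504), of which only Ttc37 was above background on any of the 6 arrays. Of the 46 probes, 4 differed by more than 0.5 on the log2 scale, and the smallest difference was 0.25.

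Differences in the 72 h comparison were small over the whole array. Of the 10990 probes above background, 56 differed by more than 0.5 on the log2 scale. A difference above 1 was seen for 6 probes, of which 5 were above background, against 71 probes in SG 24 h after kainate, 3 at 5 h and 11 in OC at 72 h. The absolute log2 difference at the 90th percentile was 0.20 at 72 h and 0.36 at 24 h in SG, while the median standard error was 0.14 and 0.15. For a probe above background, the 95% interval of the 72 h difference reached a median of 0.28 to either side, or 1.22-fold. The interval lay wholly within a 1.5-fold change for 9517 of the 10990 probes (86.6%) and within a 2-fold change for 10776 (98.1%). Background was not subtracted from these values, so the bounds apply to ratios of signal. Values can be larger after background correction: with neqc, the change of the Alg11 effect from 5 h to 72 h was -1.14 in place of -0.54.

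**Figure D2:**
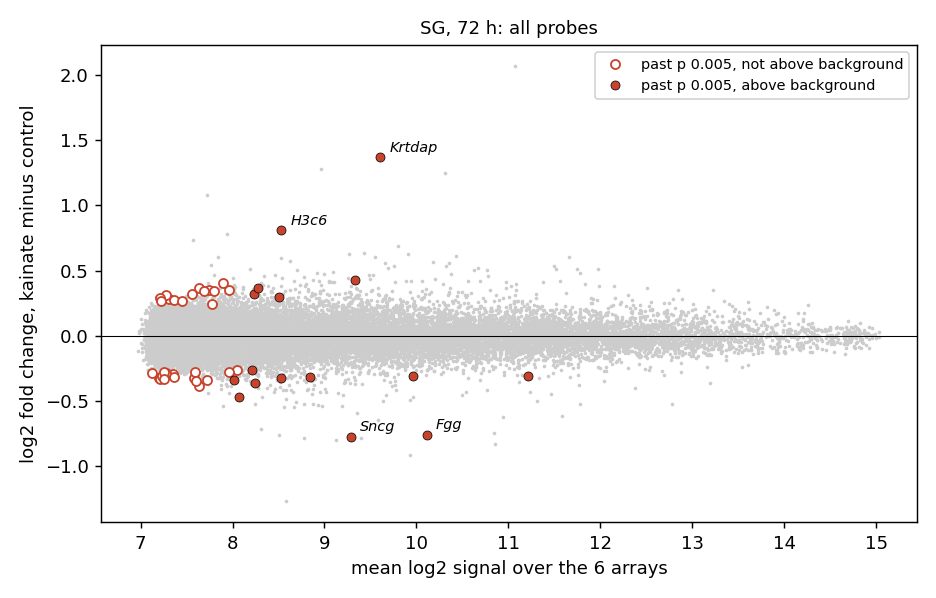
Log2 fold change, kainate minus control (vertical axis), against mean log2 signal over the 6 arrays (horizontal axis) for all 25697 probes in SG at 72 h. Filled red circles are the 16 probes past the threshold and above background, open circles the 30 past it and not above background, and grey points the rest; most open circles lie at the dim end.

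The largest differences of all were not among the probes that passed. These genes were picked out after their values were seen. Car13, a carbonic anhydrase, had a log2 fold change of 2.07, but its signals were 7.34, 10.81 and 11.96 in control and 11.59, 12.48 and 12.24 after kainate, with control 2 alone at background level (limma unadjusted p = 0.178). H2-T23, a nonclassical class I histocompatibility gene, was at 7.27, 7.34 and 10.38 in control and at 10.77, 7.40 and 10.64 after kainate, so high and low arrays occurred in both groups. Emb, a membrane glycoprotein gene, was at 7.09 on control 3 alone and between 10.04 and 11.93 on the other arrays. A probe of Gm525 was at 7.86 on control 2, higher on control 3 and control 4, and at 8.56, 7.30 and 7.98 after kainate, a log2 fold change of -1.26 (limma unadjusted p = 0.00525), just outside the threshold. Transcripts linked to sex also varied between arrays of a group. Eif2s3y, a Y-linked gene, was at 11.26 on control 4 and 11.62 on kainate 4 and between 7.30 and 7.67 on the others, so 1 array of each group carried it.

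In SG at 24 h, 7 probes (0.0272%) of 5 genes passed an adjusted p under 0.05 in limma, all higher after kainate. None of them passed the threshold at 72 h. By the heat map colours of the study, no SG kainate array at 24 h shared a batch with an SG control array at 24 h. The study reported no batch effects in its clustering of the arrays. With these batches, effects of kainate and of batch at 24 h cannot be told apart. That also limits each comparison of 72 h with 24 h. Otoa, the inner ear protein otoancorin that anchors the gel over the sensory cells, was above background at 24 h on all 3 kainate arrays and on neither control array, and was at least 1.81-fold higher after kainate. At 72 h it was at 9.29, 9.08 and 9.13 in control and at 8.52, 8.83 and 8.85 after kainate, lower on all kainate arrays, with a log2 fold change of -0.43 (95% interval -0.82 to -0.05, limma unadjusted p = 0.0289). Set against that bound, the effect fell by at least 1.29 on the log2 scale between the times. The measured change was -1.56 (limma unadjusted p = 4.79e-06, adjusted p = 0.123), the smallest p of that contrast. The fibrillar collagen gene Col3a1, with the probe that passed at 24 h, was at least 1.99-fold higher at 24 h, again with no control array above background. At 72 h that probe differed by -0.08 (95% interval -0.52 to 0.36) and was above background on 3 of the 6 arrays. The effect fell by at least 1.07, with a measured change of -1.57 (limma adjusted p = 0.289). Both changes stayed past p 0.005 when any single array was left out. A second, brighter probe of Col3a1 differed by 0.29 at 72 h, with a standard error of 0.41. Slc38a5, a glutamine transporter, and Art3, of the ADP-ribosyltransferase family, rose at 24 h, and at 72 h these probes were not above background on any of the 6 arrays. At 24 h Slc38a5 was at least 2.15-fold higher, and Art3 had a log2 fold change of 1.41 with 1 of 2 control arrays above background. A second Art3 probe, above background on the same number of control arrays at 24 h and on 2 of 6 arrays at 72 h, differed by 1.02 and then by -0.02, and the probes of Phf11a were at background at 72 h.

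Of the 171 probes higher at 24 h, with a median log2 fold change of 0.62, 73 were higher at 72 h (42.7%, against 49.3% of all probes), and their median at 72 h was -0.02. Of the 111 lower at 24 h, 72 were lower at 72 h (64.9%, against 50.7%), with a median of -0.02. None of the 282 passed at 72 h in the same direction (0 of 171 and 0 of 111), and Sel1l passed at both times with opposite sign but was not above background on any of the 6 arrays at 72 h. The effect itself, with batch and treatment not separated at 24 h, differed between 72 h and 24 h for 0 probes at an adjusted p under 0.05 in limma. At an unadjusted p under 0.05 it differed for 1195 (4.65%). At an unadjusted p under 0.005 it differed for 136 probes (0.529%), 92 of them lower at 72 h. That count was 298 without control 3 of 24 h, 257 without control 2 of 72 h and 216 without kainate 1 of 72 h. It was 87 without control 2 or kainate 4 of 24 h and 88 without kainate 3 of 72 h.

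The effect at 72 h differed from that at 5 h for 49 probes (0.191%). Of them 1 (0.00389% of all probes), Alg11, had an adjusted p of 0.0382 in limma, with log2 fold changes of 0.28 at 5 h, where 2 of 4 control arrays were above background, and -0.26 at 72 h. When each of the 14 arrays was left out in turn, its adjusted p ran from 0.0124 to 0.218 and stayed under 0.05 only without control 3 or kainate 1 of 5 h (2 of 14). Prdm9 also passed at both times with opposite sign, and was not above background on any control array at 5 h or kainate array at 72 h. No probe passed at 5 h and at 72 h in the same direction. Of the 70 probes lower at 5 h, 47 were lower at 72 h (67.1%, against 50.7% of all probes), with a median of -0.07, and of the 30 higher, 12 were higher (40%, against 49.3%). The count was 75 without kainate 4 of 5 h and 30 without kainate 2 of 5 h.

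**Figure D3:**
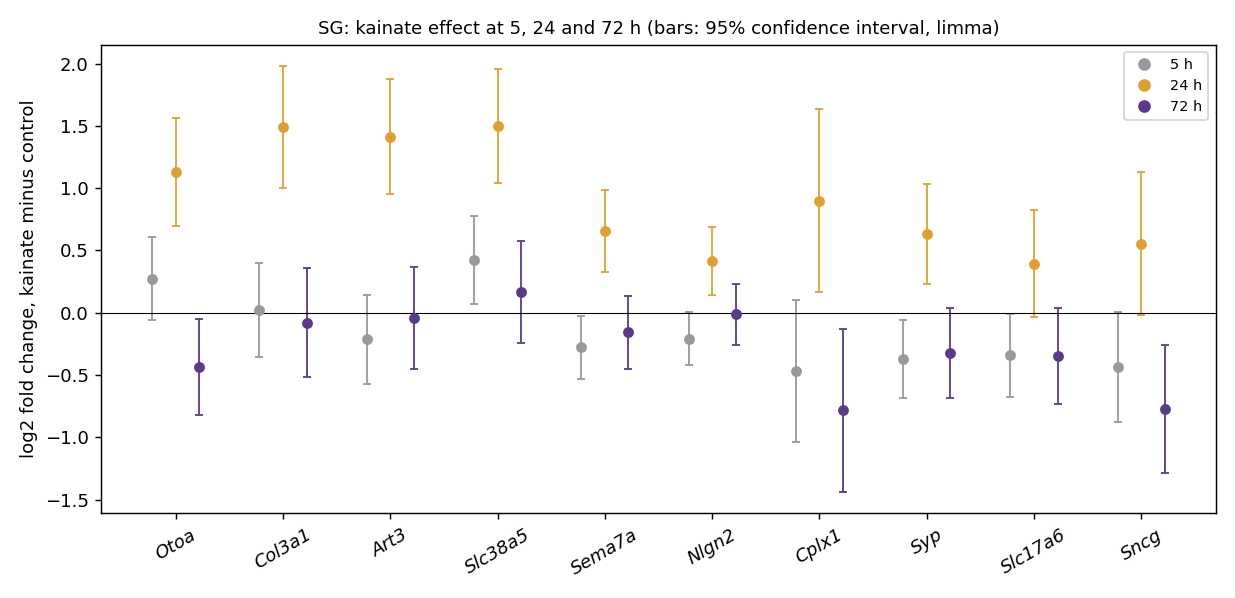
Log2 fold change, kainate minus control (vertical axis), in SG at 5 h (grey), 24 h (orange) and 72 h (purple) for 10 genes, with 95% confidence intervals from limma. All 10 lie above 0 at 24 h; at 72 h the intervals of Otoa, Cplx1 and Sncg lie below 0 and the others include 0, and the 72 h probes of Art3 and Slc38a5 were not above background. No control array at 24 h was above background for Otoa, Col3a1 and Slc38a5, so their orange points are measured differences from a dim group.

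The 10 genes that the study named for neuronal development were read by all of their 23 probes, and none passed at 72 h. Nlgn2, a postsynaptic adhesion protein of the neuroligin family, was at 10.87, 10.98 and 11.03 in control and at 11.04, 10.81 and 10.99 after kainate. Its log2 fold change was -0.01 (95% interval -0.26 to 0.23) after 0.41 at 24 h. Sema7a, a membrane-bound semaphorin that promotes axon growth, was at 8.44, 8.59 and 8.58 and then at 8.70, 8.36 and 8.09 with probe ILMN_2790357. The groups overlapped, and the log2 fold change was -0.16 after 0.66 at 24 h, a change of -0.81 (limma unadjusted p = 0.000671, adjusted p = 0.621) that was not past the threshold without control 2 of 24 h. Sox21, a transcription factor of supporting cells, was at 12.78, 12.52 and 12.62 and then at 12.75, 12.81 and 12.82. Probes of Elavl4, Ppp1r1c, Psd2, Rgmb and Syt8 were not above background on any of the 6 arrays, and those of Syn1 and Ntrk3 on at most 1.

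Several presynaptic genes were lowest on kainate 3, and none of the list of synaptic vesicle and release genes passed (0 of 45), where 0.187% of all genes did. Cplx1, a complexin that clamps and times vesicle fusion, was at 9.68, 9.57 and 10.11 in control and at 9.69, 7.91 and 9.41 after kainate. Kainate 3 was below every other array, and the log2 fold change of -0.78 (limma unadjusted p = 0.0205) was -0.24 without it. Syp, the vesicle protein synaptophysin, was at 9.11, 9.28 and 9.10 and then at 9.38, 8.29 and 8.84, with a log2 fold change of -0.32, and -0.05 without kainate 3. Slc17a6, a vesicular glutamate transporter, was at 9.66, 9.13 and 9.39 in control and at 9.42, 8.52 and 9.19 after kainate, with a log2 fold change of -0.35, and -0.09 without kainate 3. Without kainate 1 instead, Cplx1 and Syp passed the threshold, at -1.13 and -0.59. With the array number as a fixed block, which sets kainate 1 and control 2 aside, Cplx1 was at -1.18 (limma adjusted p = 0.00824). At 24 h the 3 genes had been at 0.90, 0.63 and 0.39. Kainate 3 was the lowest array for 19 of the 47 neuron and synaptic vesicle probes above background (40.4%), and for 1799 of all 10990 (16.4%). Of the 27 synaptic vesicle probes above background, kainate 3 was lowest for 12, kainate 1 for 8 and kainate 4 for 1. Control 2, 3 and 4 were lowest for 1, 3 and 2. Over all 10990, kainate 1 was lowest for 2164 and kainate 4 for 1554. The part of kainate 3 in these differences was not tested beyond leaving it out.

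Gene groups were described with 31 lists of 961 measured genes, each gene read by its brightest probe. Of these genes, 3 passed the threshold (0.312%), Sncg above background and Itgb2 and Mmp10 not, as did 31 of all 16593 genes (0.187%). No list had a median beyond 0.1 in either direction at 72 h (0 of 31), while 11 had at 24 h, and the medians ran from -0.09 to 0.06 where all genes had -0.002. In all 31 lists the array means of kainate and control overlapped. The spiral ganglion neuron list had 14 of 35 genes higher, with a median of -0.05 after 0.17 at 24 h and -0.22 at 5 h. Synaptic vesicle and release genes had 14 of 45 higher and a median of -0.07. Cholesterol synthesis had the lowest median at 72 h as at 24 h, -0.09 and -0.40. Of its 20 genes 4 were higher, and Cyp51, a demethylase of the pathway, was at 10.52, 9.95 and 10.77 and then at 9.70, 10.34 and 10.33, with overlapping groups.

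Lists that had been higher at 24 h, where batch and treatment were not separated, lay near 0 at 72 h. Interferon-induced genes had a median of 0.32 at 24 h and of -0.01 at 72 h, with 25 of 54 higher. Fibroblast genes went from 0.39 to -0.003, endothelium and pericyte genes from 0.31 to 0.006, collagens and matrix metalloproteinases from 0.20 to -0.002, and macrophage and leukocyte genes from 0.45 to 0.06. Hair cell genes had 15 of 21 higher and a median of 0.06, and supporting cell and epithelium genes 17 of 25 and 0.05, both without a gene past the threshold.

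**Figure D4:**
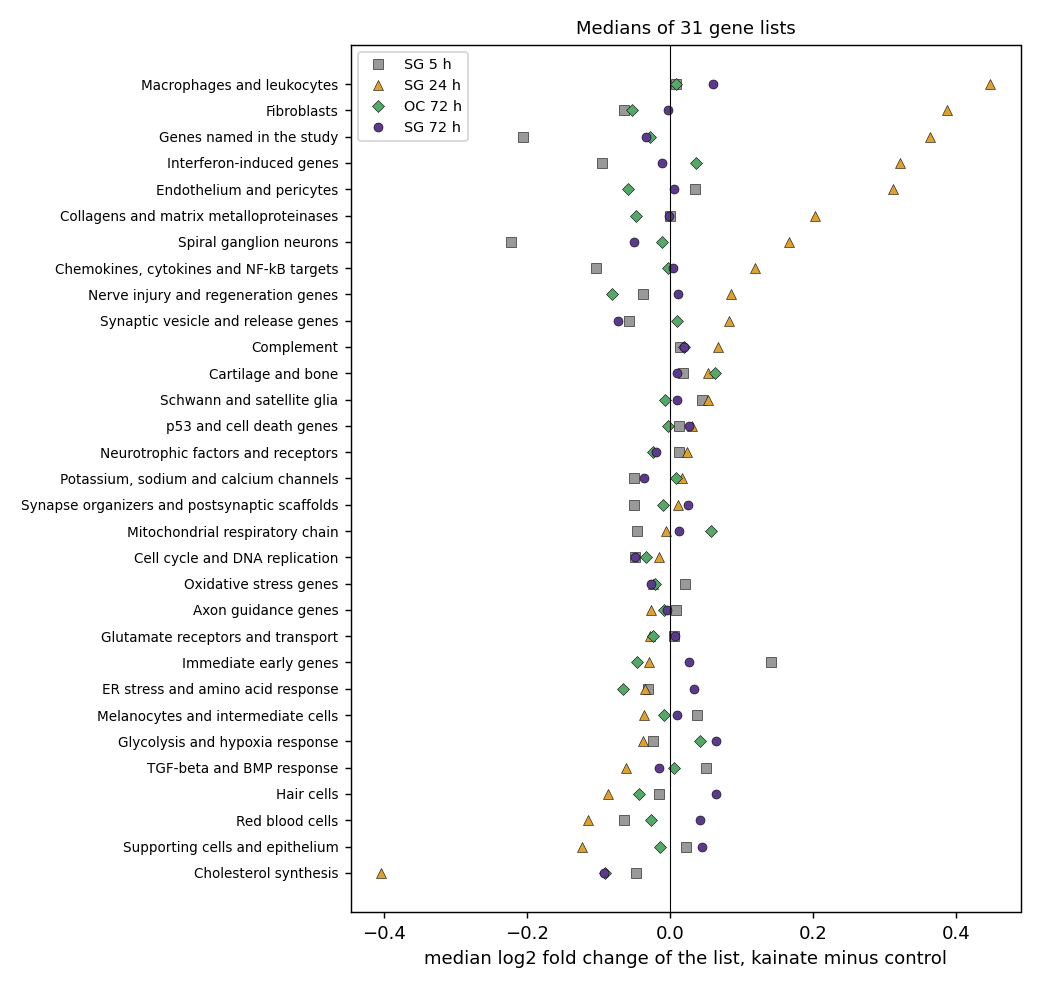
Median log2 fold change, kainate minus control (horizontal axis), of 31 gene lists (rows) in SG at 5 h, 24 h and 72 h and in OC at 72 h. The 72 h SG medians (purple circles) stay between -0.09 and 0.06, while those of SG at 24 h (orange triangles) run from -0.40 to 0.45.

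Single members of these lists had values further from 0 without passing. Gpx2, a glutathione peroxidase of epithelia, was at 12.07, 12.16 and 11.88 in control and at 11.57, 11.94 and 11.04 after kainate, a log2 fold change of -0.52 (limma unadjusted p = 0.00675) in which kainate 3 lay above control 4. Without kainate 3 it was -0.73 and passed the threshold. Rgs5, a pericyte marker, was at 8.70, 8.99 and 9.44 and then at 8.23, 8.81 and 8.53, with a log2 fold change of -0.52 (limma unadjusted p = 0.0276). Sema3b, a secreted semaphorin, was at 9.57, 9.43 and 9.77 and then at 8.92, 9.40 and 9.34, lower on all kainate arrays, with a log2 fold change of -0.37 (limma unadjusted p = 0.0157). Genes of the sensory epithelium and the mitochondrial chain differed less: Espn, an actin bundler of stereocilia, by 0.21, and Atp5h, of the ATP synthase, by 0.15.

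The spread of other cell types between arrays of a group exceeded the difference between the groups. The mean of 30 macrophage and leukocyte markers was 8.34, 9.44 and 8.89 on the control arrays and 9.37, 8.65 and 8.95 on the kainate arrays, while the group means differed by 0.10. Lyz2, the lysozyme of macrophages, spanned 9.36 to 11.58 in control and 10.34 to 11.93 after kainate. The mean of 27 fibroblast markers was 9.70, 10.51 and 10.36 in control and 10.53, 9.94 and 10.12 after kainate. Control 2 was the lowest array for 14 of 20 macrophage probes above background (70%) and 12 of 23 fibroblast probes (52.2%), against 15.1% of all probes. The median of the macrophage list was -0.82 within the batch of kainate 3 and control 3 and 0.08 within that of kainate 4 and control 4. How far these marker levels entered the probe-level results was not tested.

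**Figure D5:**
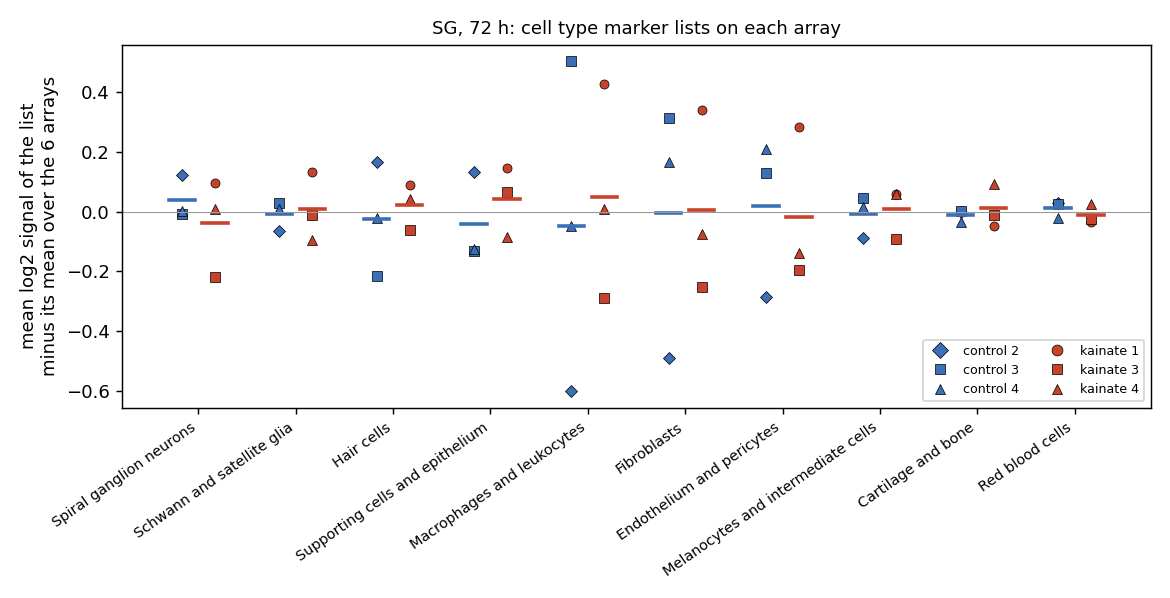
Mean log2 signal of 10 cell type marker lists on each of the 6 SG arrays at 72 h (vertical axis), centred on the mean of the 6 arrays. Symbols are single arrays, blue for control and red for kainate, and bars are group means; macrophage, fibroblast and endothelium lists spread widest, with control 2 lowest in each, and no list separates the groups.

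The kainate effect at 72 h differed between SG and OC for 42 probes (0.163%) at an unadjusted p under 0.005 and for 0 at an adjusted p under 0.05 in limma, with 704 (2.74%) at an unadjusted p under 0.05. Arrays of both fractions may come from the same explants. Plekhg6 passed in both fractions with the same sign, with log2 fold changes of 0.30 in SG and 0.28 in OC, and so did Rita1, which was not above background on any array of either. Among probes above background, those of Akap8l, a nuclear protein related to A-kinase anchoring proteins, and of the transcription factor gene Nfic had the smallest p of this contrast. Their log2 fold changes were -0.15 and 0.32 in SG and 0.42 and -0.24 in OC. The count was 27 without kainate 4 of OC, and 64, 69, 72 and 74 without kainate 2 of OC, kainate 3 of OC, control 2 of SG and kainate 4 of SG.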

How the data were processed

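Expression was measured on 38 Illumina MouseRef-8 v1.1 bead arrays, of which the 6 SG arrays at 72 h were compared here. The authors deposited log2 values that were quantile normalized between arrays, and quantile normalization of log2 raw signals gave these values to within 4.99e-09. The deposited raw signal intensity is linear and not normalized, and the deposited detection p-value sets each probe against control beads. The authors used scanner software and a limma version not given in the sources used here. Of 25697 probes, 23978 carry a gene symbol, for 16593 genes.

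Group means of all 38 arrays entered a single linear model (limma 3.58.1, R 4.3.3) whose variances were moderated (residual degrees of freedom 26, prior 5.36). Each fold change is on the log2 scale. A probe passed at an unadjusted p under 0.005, and adjusted p-values are Benjamini-Hochberg values over all probes. A probe was above background where its detection p was under 0.01 on at least 2 arrays of a group. The bound "at least N-fold" sets the group mean against the higher of the dim probe and the lowest detected signal. Batches of arrays were read by eye from the colours above the heat map of the study, and the sample labels do not give them. The fit was run on simulated data with independent noise on each array. That simulation held no batch or replicate correlation, so it does not cover the correlation of 0.15 between arrays of a replicate block. The number of arrays limits the precision.

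Genes were named if they passed and were above background (the 8 largest differences each way with all array values), if the study names them, if they were among the 4 of smallest p in a list, if they passed at an adjusted p under 0.05 in SG at 24 h, if they passed in 2 comparisons, or if they led a contrast between effects. Others are said to be chosen after their values were seen. The members and the 31 lists were chosen with earlier results of these data known. Alternatives were background correction with neqc (offset 16), median centring, the series matrix, replicate number or batch as a block, array weights, an intensity trend, no moderation, probes above background, fewer arrays in the fit, another rule for genes with several probes, and leaving out each array.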

Additional observations from a re-analysis of the deposited data

Results flagged for a closer look

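Of the results of the text, the contrast of the kainate effect between 72 h and 5 h in SG gave 1 probe for which the effects differed at an adjusted p under 0.05. This was the probe of Alg11, a mannosyltransferase of N-glycan assembly, with a difference of effects of -0.54 on the log2 scale (limma adjusted p = 0.0382). Its log2 fold change was 0.28 at 5 h and -0.26 at 72 h. The adjusted p was 0.05 or over under 6 of 12 alternatives, which gave 0.00167 to 1, and in 12 of 14 fits that left out a single array, which gave 0.0124 to 0.218. Among the 12, the series matrix repeats the main values, and probes above background repeats the unadjusted p over fewer probes. Both were bound to stay under 0.05. The probe was above background on 2 of 4 control arrays and 4 kainate arrays at 5 h, and on 3 control arrays and 1 kainate array at 72 h. A second Alg11 probe gave 0.03 at 72 h.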

How the results depend on the processing

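Counts at an unadjusted p under 0.005 depended on the processing. For kainate against control in SG at 72 h, 46 probes passed. The count was 76 with neqc, 9 with median centring, 97 with a fixed block for batch, 39 of the 46 among them, 29 with array weights, 16 over probes above background and 5 with the 6 arrays alone, and it ran from 58 to 94 when single arrays were left out. Values of the series matrix, no moderation, an intensity trend and the 19 SG arrays alone gave 46, 64, 49 and 33. At an adjusted p under 0.05, neqc passed 1 probe, of Olfr1188, which was not above background.

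For the change from 24 h to 72 h (136 probes), the 19 SG arrays gave 89 and the compared groups alone 67, and leaving out single arrays gave 87 to 298. For the change from 5 h (49 probes), median centring gave 20, probes above background 22, the SG arrays 31 and the compared groups 26, and leaving out single arrays gave 30 to 75. For SG against OC (42 probes), median centring gave 19, probes above background 15 and the compared groups 16, and leaving out single arrays gave 27 to 74.

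Deviations of arrays of the same tissue, time and replicate number were positively correlated in all 15 such pairs. The correlations ran from 0.003 to 0.626, and 12 were over 0.1. In SG at 72 h they were 0.128 for number 3 and 0.626 for number 4. Log2 signals of kainate 4 and control 4 correlated at 0.991, the highest value among the SG arrays at 72 h. The mean was 0.979 for pairs of different treatment and 0.974 for pairs of the same treatment. The main fit took the arrays as independent and did not use the number as a pairing. Whether the number marks paired arrays was not tested further. With the number as a fixed replicate block, 267 probes passed at 72 h, 7 of them among the 46, and 40 at an adjusted p under 0.05. The counts for the contrasts with 24 h, 5 h and OC were 263, 191 and 167. With a random block they were 79 at 72 h, with all 46 kept, and 77 and 78 for 5 h and OC. Under the fixed block the log2 fold change of Tgfbi, a matrix protein gene, was -0.46 in place of 0.27, and that of Cplx1 was -1.18 with an adjusted p of 0.00824 in limma. Kainate 1 and control 2 have no array of the other group with their number. The fixed block at 72 h in SG therefore compared only kainate 3 and 4 with control 3 and 4. The log2 fold change in that fit is the mean difference of those arrays, so the change of arrays alone moved it. Whether the change of arrays or the pairing moved the counts and adjusted p-values was not tested.

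Of 2843 alternative values for 163 gene results at 72 h, 2673 were counted as kept, 140 lost the call, 29 gained one and 1 reversed. A result that had passed was kept if it passed again in the same direction. Most of the 163 results had not passed in the main fit. Such a result counts as kept while it stays short of the threshold, even where its sign changed. The series matrix repeats the main values. Of the 16 probes that passed and were above background, 1 stayed past the threshold in all 6 left-out fits. Of 803 values for 35 differences between effects, 766 were kept by the same rule, 17 lost the call and 20 gained one. Of 496 list medians, 459 moved by less than the spread between arrays. Signal over background limits 27 of the 46 probes, which no array detected.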
